A study of Mus musculus with 54 samples.

Results

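CC chemokines are small secreted proteins that bind G protein-coupled receptors and draw leukocytes towards a source. Macrophages are a main source of them in inflamed tissue, and the ligands differ in the cells they attract: the ligands of Ccr2 call monocytes out of the blood, the ligands of Ccr1 attract monocytes, T cells and other leukocytes, and Ccl22, a ligand of Ccr4, attracts T helper 2 and regulatory T cells. LPS and IFN-γ, which were used to make M1-like macrophages, and IL-4, which was used to make M2-like macrophages, are known to set different chemokine programs. The 10 genes described here (Ccl2, Ccl3, Ccl4, Ccl5, Ccl6, Ccl7, Ccl8, Ccl9, Ccl12 and Ccl22) were taken by symbol out of 39179 counted gene identifiers, and all 10 passed the filter on low counts in both experiments. At 24 h Ccl12 passed it only through the M1-like samples.

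Macrophages were the adherent cells of the peritoneal exudate of C57BL/6 mice aged 8 to 20 weeks that had been injected with thioglycolate, and RNA sequencing was done in 2 experiments. In the polarization experiment, macrophages of 3 mice were kept without cytokines (M0), exposed to 100 ng/ml LPS with 50 ng/ml IFN-γ (M1-like) or exposed to 10 ng/ml IL-4 (M2-like) for 24 h. In the reprogramming experiment, 36 libraries covered 12 conditions with 3 replicates, in which macrophages polarized in the same way for 24 h were then left untransfected, mock transfected without siRNA, or, for M2-like macrophages, transfected with a pool of siRNAs and harvested after 48 h. After siRNA transfection the M2-like macrophages were kept without IL-4. Sequencing was done at 2 sites, with single-end or paired-end reads, and the methods do not say which samples went to which site. The siRNA pools were a negative pool, pools against E2f1, Myc, Pparg or Stat6, and all 4 of these pools combined, which gives the cells called iM1 macrophages. The Myc pool came from another supplier than the pools against E2f1, Pparg and Stat6, and the supplier of the negative pool is not given in the sources used here, so that a difference between the target and a difference between siRNA products cannot be told apart for the Myc pool. The methods name 3 biological replicates for the M0, polarized and iM1 states in their part on RNA isolation and PCR. The sequenced replicates of the reprogramming experiment are not said to be separate animals. The p-values there thus measure the spread between these libraries, which may not be that between animals. The knockdowns were incomplete. Relative to the negative pool, the targeted mRNA stood at 25.2% ± 4.05 for E2f1, 38.0% ± 8.01 for Myc, 21.9% ± 2.57 for Pparg and 27.3% ± 5.79 for Stat6 in its own pool (SD, n = 3), and at 60.4% ± 2.01, 39.6% ± 3.20, 28.3% ± 2.25 and 53.9% ± 4.82 in the combined pool. Pparg mRNA also stood at 65.2% ± 5.72 in the Myc pool, 79.6% ± 3.92 in the E2f1 pool and 78.4% ± 1.26 in the Stat6 pool. The other targets had means of 98.3% to 123% in single pools against other factors. In M2-like mock macrophages E2f1 mRNA stood at 134% ± 6.58 of the negative pool.

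Samples of the polarization experiment held 39577911 to 59443987 counts and libraries of the reprogramming experiment 13421854 to 19704195. The 8 macrophage markers were counted in every sample. Their sum, of which Lyz2 was the largest part, was lower in M1-like macrophages, which need not hold for each marker. In CPM (counts scaled to a common library size), the sum was 10392–11385 in M1-like, 16161–17437 in M0 and 12729–13060 in M2-like samples at 24 h, and 6450–8100 CPM in the late M1-like libraries (those of the reprogramming experiment, with or without mock transfection) against 12900–17000 CPM in late M0 and 11700–18400 CPM in late M2-like libraries. The T cell and NK cell markers summed to at most 2.58 and 2.73 CPM in any sample. Lists of other cells moved with the polarization as well. In the same order of late M1-like, M0 and M2-like libraries, the 4 B cell markers summed to 0.672–2.36, 6.01–33.2 and 6.25–26.9 CPM, the 5 mesothelial and fibroblast markers to 11.4–63.4, 71.7–170 and 59.2–256 CPM, the 3 eosinophil markers to 0.61–1.7, 9.08–23.9 and 15.2–45.8 CPM and the 4 mast cell markers to 0.126–0.803, 2.11–4.03 and 2.62–9.47 CPM. At 24 h the eosinophil markers summed to 0.208–0.792 CPM in M1-like and 13.6–18.5 CPM in the other samples. The eosinophil sums were almost all Siglecf, as Epx reached at most 0.134 CPM and Prg2 at most 0.109 CPM in any sample. The 4 neutrophil markers, led by S100a8, summed to 7.56–13.1, 3.49–10.2 and 3.1–6.81 CPM in late M1-like, M0 and M2-like libraries, of which the first 2 overlap, while Ly6g was at 0 in all 36 libraries of the reprogramming experiment. Their part in the chemokine differences was not tested, and in bulk RNA fewer cells of a type and less RNA per cell cannot be told apart. Replicate 3 of the M0 mock macrophages stood apart from the other 2, so that results which rest on it are given without it as well.

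Of the 10 genes, 9 lie on chromosome 11 in 2 groups (GRCm38, GENCODE M21). Ccl2 (82035571–82037453), Ccl7 (82045712–82047525), Ccl12 (82101845–82103400) and Ccl8 (82115185–82116799) lie in this order on the plus strand, with Ccl11 between Ccl7 and Ccl12. Ccl5 (83525778–83530518), Ccl9 (83572919–83578636), Ccl6 (83587882–83593087) and Ccl3 (83647844–83649355) lie on the minus strand, beside Ccl4 (83662584–83664683) on the plus strand. Ccl22 is on chromosome 8 (94745590–94751699, plus strand). An antisense gene overlaps Ccl2 (Gm17268) and Ccl6 (E230016K23Rik), in each case without overlap of exons, and whether the reads were counted by strand is not given in the sources used here.

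RefSeq promoter windows were at hand for 6 of the 10 genes. The 250 bases before the start are shown for Ccl12 and Ccl8, neighbours that both rose in M1-like macrophages, and for Ccl6 and Ccl9, neighbours that both fell there (RefSeq, GRCm38.p6). Ccl12 (chr11:82101595-82101844, plus strand) and Ccl8 (chr11:82114935-82115184, plus strand) had the same base at the same distance from the start at 90 of 250 positions (36%), which was the highest share among the 15 pairs of the 6 windows; these bases are in capitals:
Ccl12: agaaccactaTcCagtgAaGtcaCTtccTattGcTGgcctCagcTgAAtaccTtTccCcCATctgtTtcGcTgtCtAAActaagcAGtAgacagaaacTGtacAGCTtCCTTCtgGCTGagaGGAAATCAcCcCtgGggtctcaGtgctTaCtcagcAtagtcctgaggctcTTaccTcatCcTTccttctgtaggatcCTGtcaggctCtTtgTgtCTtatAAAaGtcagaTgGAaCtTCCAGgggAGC
Ccl8: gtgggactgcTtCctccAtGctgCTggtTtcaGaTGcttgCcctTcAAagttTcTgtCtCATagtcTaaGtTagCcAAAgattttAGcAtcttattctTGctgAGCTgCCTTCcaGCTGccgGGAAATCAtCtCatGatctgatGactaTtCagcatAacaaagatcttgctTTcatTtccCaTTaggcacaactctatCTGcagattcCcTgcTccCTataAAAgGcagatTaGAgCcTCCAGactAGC
For Ccl6 (chr11:83593088-83593337, minus strand) and Ccl9 (chr11:83578637-83578886, minus strand) the share at the same distance was 20%, the lowest of the 15 pairs, but a stretch of 13 bases occurred in both, 43 to 55 bases before the start of Ccl6 and 2 to 14 bases before that of Ccl9. No other pair shared more than 10 bases in a row. The 13 bases are in capitals:
Ccl6: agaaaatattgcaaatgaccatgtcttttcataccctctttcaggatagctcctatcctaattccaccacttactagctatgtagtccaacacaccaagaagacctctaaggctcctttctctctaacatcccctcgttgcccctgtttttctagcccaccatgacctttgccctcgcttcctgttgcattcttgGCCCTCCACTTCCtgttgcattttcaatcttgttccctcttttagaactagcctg
Ccl9: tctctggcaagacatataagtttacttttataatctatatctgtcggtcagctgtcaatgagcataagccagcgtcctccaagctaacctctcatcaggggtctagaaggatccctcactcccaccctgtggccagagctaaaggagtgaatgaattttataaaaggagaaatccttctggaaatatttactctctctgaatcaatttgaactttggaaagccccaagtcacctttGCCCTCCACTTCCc
None of the 6 windows held the STAT-type letters TTCNNNGAA, the same ends with 4 bases between them, or the core of the interferon-stimulated response element (ISRE) on either strand upstream of the start, while 7.02%, 5.85% and 2.98% of all 32851 RefSeq windows did in the same part. The NF-kB consensus was found in 1 of the 6, Ccl9, against 3.9% of all windows. These matches describe the letters in short windows and are not binding sites.

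The first comparison asked which CC chemokines LPS with IFN-γ raised or lowered within 24 h. All 10 passed the test between M1-like and M0 macrophages, 8 higher and 2 lower (adjusted p under 0.05, edgeR's quasi-likelihood test), in a comparison in which 72.9% of the 16110 genes tested passed, 35.4% higher and 37.5% lower. Ccl12 is among the 8, but it had 0 counts in M0 and passed the filter only through the M1-like samples. Its call as higher was thus set by the filter and is not a result of the test. The median log2 fold change was 4.06 over the 10 genes and −0.04 over all genes. Ccl5, which attracts T cells and monocytes, was counted at 3.52, 1.90 and 2.61 CPM in the 3 M0 samples and at 4222, 4290 and 4469 CPM in the M1-like samples, a log2 fold change of 10.66 ± 0.25 (SE, adjusted p = 3.72e-12). Per length it was by far the highest of the 10 in M1-like macrophages, at a mean of 4507 RPKM (CPM per kilobase of gene length) beside 434 for Ccl2 and 235 for Ccl7.

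The 4 genes of the first group, which code for monocyte chemoattractant proteins, rose together. Ccl2, the main ligand of Ccr2, went from 1.44, 2.14 and 1.25 CPM in M0 to 437, 468 and 576 CPM in M1-like macrophages (log2 fold change 8.26 ± 0.20, adjusted p = 4.34e-12). Ccl7, another ligand of Ccr2, went from 0.240, 0.317 and 0.184 CPM to 152, 168 and 244 CPM (9.56 ± 0.25, adjusted p = 7.23e-12). Ccl12, a mouse ligand of Ccr2, had no count in any of the 3 M0 samples and 16.1, 16.2 and 18.4 CPM in the M1-like samples. Against the 3 counts that a total of 0 over the group allows, Ccl12 was at least 898-fold higher. Ccl8, which in mice is known as a ligand of Ccr8, went from 0.300, 0.429 and 0.607 CPM to 10.3, 12.6 and 11 CPM (4.65 ± 0.25, adjusted p = 5.93e-09). No M1-like sample of these 4 genes lay as low as any M0 sample, and 38.4% of all genes tested were separated in this way. The rise of Ccl4, a macrophage inflammatory protein, was smaller, from 6.06, 5.67 and 5 CPM to 15.5, 17.6 and 21.1 CPM (1.70 ± 0.12, adjusted p = 1.02e-07). Its neighbour Ccl3, a ligand of Ccr1, was at 22.2, 21.1 and 21.5 CPM in M0 and at 20.5, 28.1 and 34.5 CPM after LPS with IFN-γ, with overlapping groups. The call of Ccl3 (0.36 ± 0.14, adjusted p = 0.0334) was lost without M0 replicate 2 (adjusted p = 0.0866) or 3 (0.0759) and without M1-like replicate 2 (0.0752) or 3 (0.189).

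Ccl6 and Ccl9, rodent ligands of Ccr1, went the other way. Ccl6 was at 155, 137 and 120 CPM in M0, at 26.6, 28.4 and 30.7 CPM in M1-like and at 241, 210 and 180 CPM in M2-like macrophages. Ccl9 was at 63.6, 58.4 and 61.8 CPM, at 12.1, 13.1 and 17.0 CPM and at 257, 216 and 208 CPM in the same order. None of the 3 groups overlapped for either gene. Of all genes, 40.8% were lower without overlap in M1-like than in M0 and 38.5% in M1-like than in M2-like samples. In M2-like samples 22.1% were higher than in M0 without overlap. Relative to M0, Ccl6 fell by 2.26 ± 0.12 and Ccl9 fell by 2.12 ± 0.12 on the log2 scale in M1-like macrophages (adjusted p = 4.75e-09 and 9.21e-09), and in M2-like macrophages they rose by 0.62 ± 0.11 and 1.89 ± 0.11 (adjusted p = 0.00188 and 5.78e-07).

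**Figure D1:**
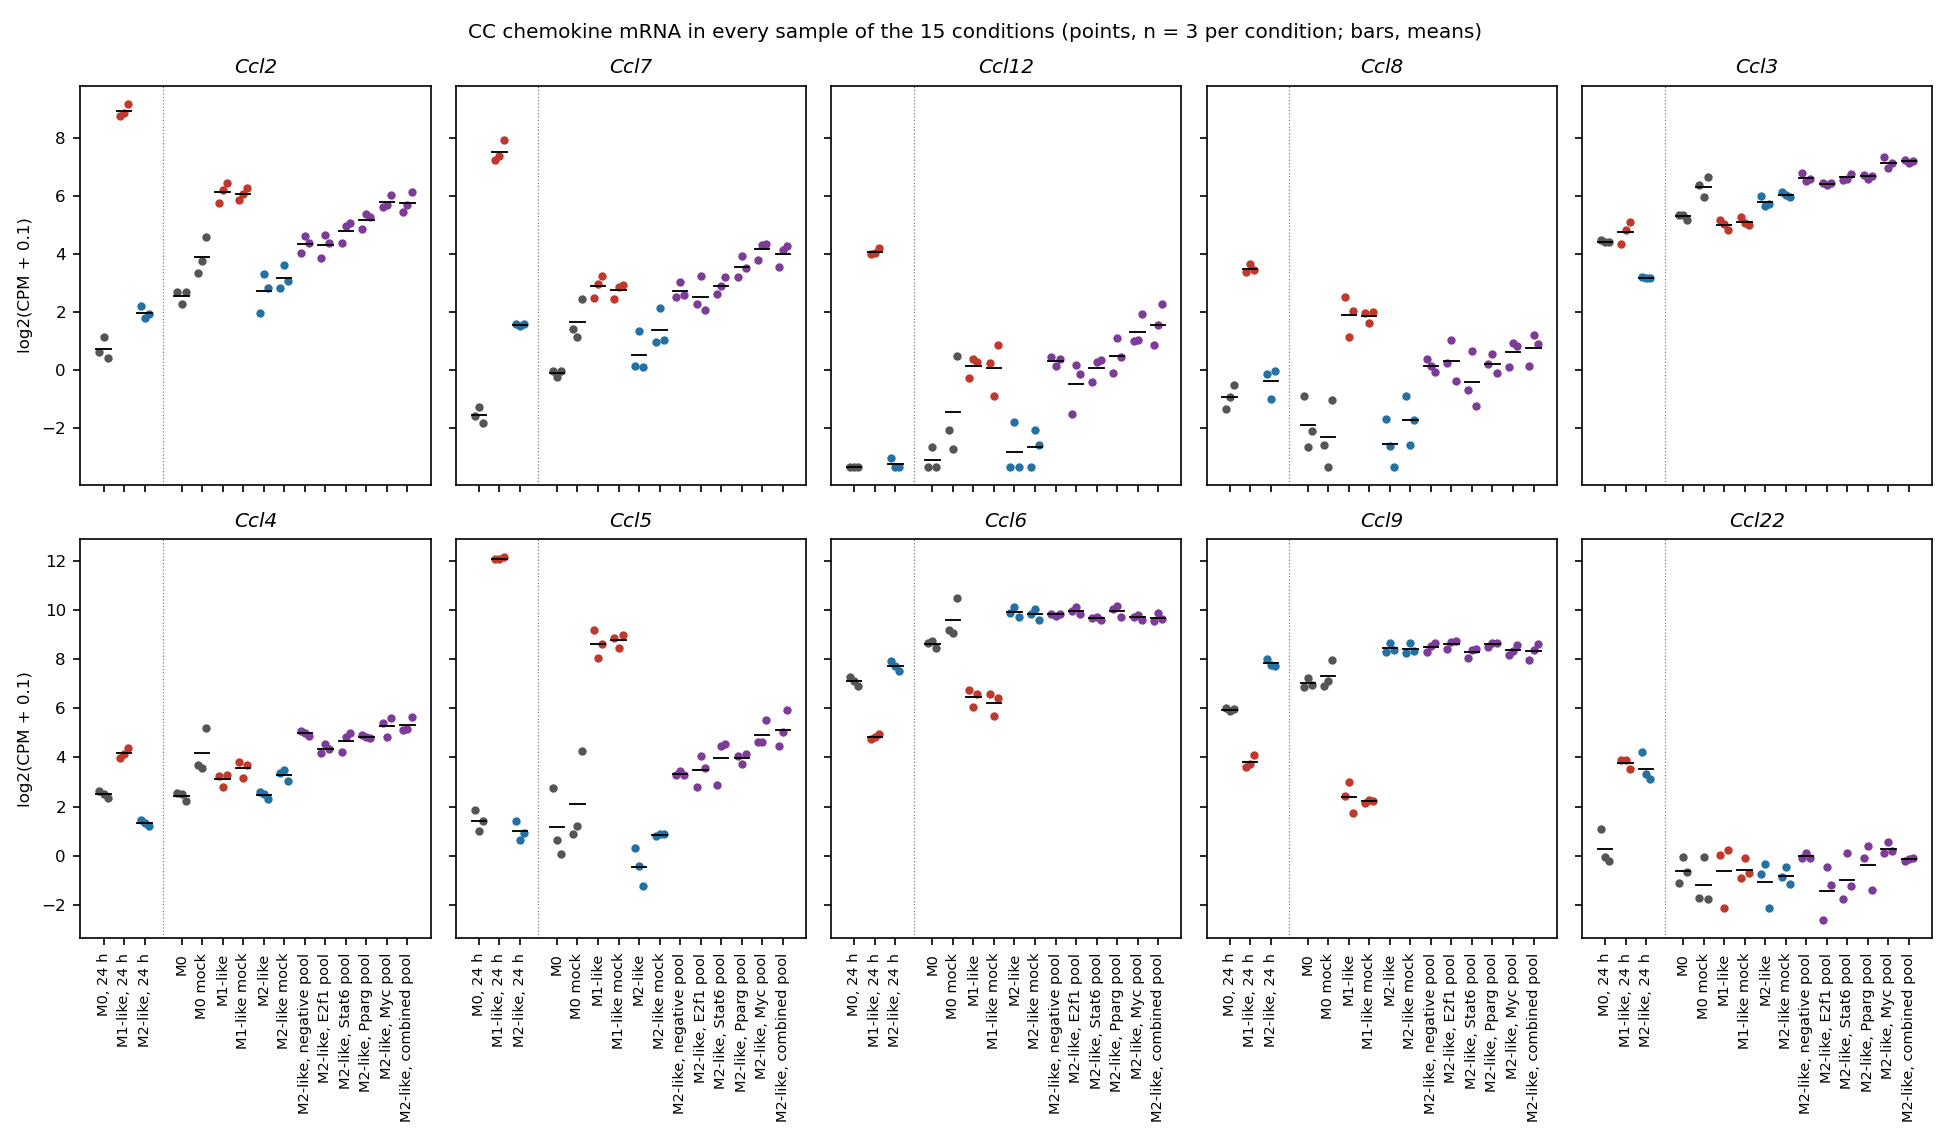
CPM of the 10 CC chemokine genes in every sample of the 15 conditions, as log2(CPM + 0.1), with a point per sample and a bar for the mean of the 3. The polarization experiment is to the left of the dotted line and was normalized separately from the reprogramming experiment. Ccl5, Ccl2, Ccl7, Ccl12 and Ccl8 are highest in M1-like macrophages at 24 h, while Ccl6 and Ccl9 are lowest in M1-like macrophages in both experiments.

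IL-4 alone moved fewer of the genes at 24 h. Between M2-like and M0 macrophages 7 of 10 passed, 5 higher and 2 lower, with 27.9% of all genes passing. Besides Ccl6 and Ccl9, the higher ones were Ccl2, Ccl7 and Ccl22. Ccl7 was at 2.94, 2.76 and 2.92 CPM in M2-like macrophages (3.53 ± 0.32, adjusted p = 1.32e-05) and Ccl2 at 4.61, 3.36 and 3.77 CPM (1.27 ± 0.20, adjusted p = 0.000709), above every M0 sample, as were 22.1% of all genes, but far under the M1-like samples. Ccl3 was at 9.28, 8.94 and 8.98 CPM and Ccl4 at 2.64, 2.40 and 2.21 CPM in M2-like macrophages, under every M0 sample, as were 23.2% of all genes. On the log2 scale Ccl3 fell by 1.25 ± 0.15 (adjusted p = 8.71e-05) and Ccl4 fell by 1.21 ± 0.14 (adjusted p = 6.74e-05). Ccl12 had 1 count over the 3 M2-like samples and is given no fold. Ccl8 (0.63 ± 0.31, adjusted p = 0.153) and Ccl5 (−0.48 ± 0.22, adjusted p = 0.127) did not pass, but Ccl8 passed without M2-like replicate 2 (adjusted p = 0.0248) and Ccl5 without M0 replicate 2 (0.0407) or M2-like replicate 1 (0.0238). Ccl5 also passed with the technical runs as separate samples (0.0231), but that fit treats the 2 runs of a mouse as independent and so understates the spread between mice.

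Ccl22 was the only one of the 10 not called between the polarized states at 24 h. It was at 2.04, 0.876 and 0.772 CPM in M0, 14.6, 14.8 and 11.4 CPM in M1-like and 18.5, 9.84 and 8.54 CPM in M2-like macrophages, and it rose against M0 in M1-like (3.47 ± 0.36, adjusted p = 3e-06) and in M2-like macrophages (3.33 ± 0.36, adjusted p = 5.2e-05). Without M0 replicate 1, the highest M0 sample, the first of these values was 4.06. The M1-like and M2-like samples overlapped, with a difference of 0.15 ± 0.30 (95% interval −0.50 to 0.80, adjusted p = 0.672). Without M2-like replicate 1 the difference passed the test (0.56, adjusted p = 0.0381), so that equal levels are not shown. The other 9 genes differed between M1-like and M2-like macrophages, 7 higher and 2 lower in M1-like, in a comparison in which 72.6% of all genes passed. The 7 include Ccl12, whose call was again set by the filter, as it had 1 count in M2-like samples. The differences ran from 1.62 for Ccl3 to 11.14 for Ccl5 on the log2 scale among the higher ones, and were −2.88 for Ccl6 and −4.01 for Ccl9. The order per length turned over between the states: Ccl5, Ccl2 and Ccl7 led in M1-like macrophages, and Ccl6, at 117 RPKM, and Ccl9, at 74.5 RPKM, led in M2-like macrophages. Within M1-like macrophages Ccl3 (36.2 RPKM), Ccl12 (31.5), Ccl4 (27.4) and Ccl8 (22.1) followed each other closely. The normalized levels of the 10 genes together summed to 4926–5434 CPM in M1-like samples, 418–539 CPM in M2-like and 214–254 CPM in M0.

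**Figure D2:**
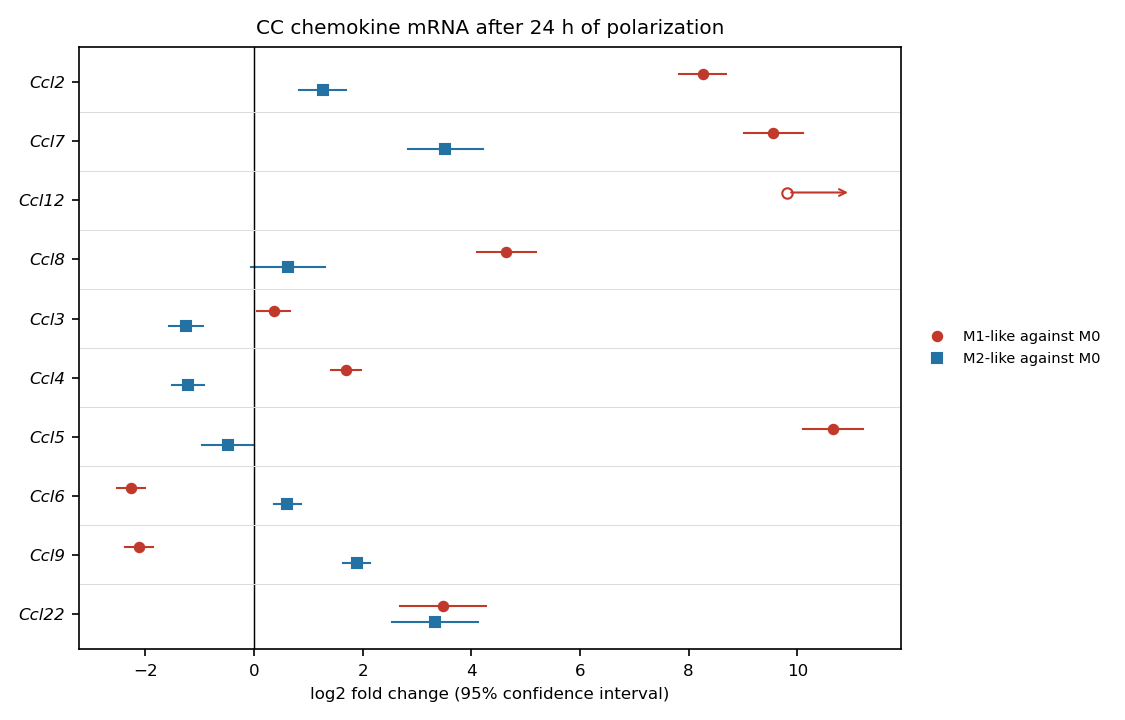
Log2 fold changes of the 10 genes at 24 h, M1-like and M2-like macrophages against M0, with 95% intervals over 3 mice per group. An open symbol marks Ccl12 in M1-like macrophages, for which a count of 0 in M0 allows only a lower bound (arrow). Ccl12 has no symbol for M2-like macrophages. In M1-like macrophages 8 genes lie above 0 and Ccl6 and Ccl9 below it.

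The reprogramming experiment held the same 3 states at a later time, after the transfection period. The 2 experiments were normalized separately, so that levels at 24 h and later are set side by side without a test. Ccl5 in untransfected M1-like macrophages was at 577, 265 and 388 CPM, Ccl2 at 53.9, 73.7 and 87.1 CPM, Ccl7 at 5.56, 7.83 and 9.34 CPM and Ccl12 at 0.733, 1.2 and 1.14 CPM, each under its level in M1-like macrophages at 24 h. Ccl6, at 106, 66.5 and 94.5 CPM, lay above its own level at 24 h.

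Against late M0 macrophages 8 of 10 genes passed in untransfected M1-like macrophages, 5 higher and 3 lower (57.7% of 14172 genes tested passed). Ccl5 stood 7.14 ± 0.60 higher on the log2 scale (adjusted p = 5.59e-12), Ccl8 4.23 ± 0.60 (adjusted p = 4.29e-07), Ccl2 3.62 ± 0.30 (adjusted p = 6.09e-12) and Ccl7 3.17 ± 0.43 (adjusted p = 2.04e-07). Without M0 replicate 1, Ccl5 stood 8.37 and Ccl8 5.23 higher. For Ccl12, 48 counts over the M1-like libraries against 1 count over the M0 libraries gave a ratio of 45.2 (95% interval 7.74 to 1820, counting error only). The largest decrease of the 10 was that of Ccl9, from 116, 148 and 124 CPM in M0 to 5.37, 7.96 and 3.22 CPM in M1-like macrophages, which fell by 4.56 ± 0.25 on the log2 scale (adjusted p = 2.52e-16), while Ccl6 fell by 2.14 ± 0.24 (adjusted p = 4.4e-09). Ccl3 was at 40.8, 41.1 and 36.6 CPM in M0 and 36.1, 32.7 and 28.2 CPM in M1-like macrophages. Its decrease (−0.29 ± 0.13, adjusted p = 0.049) was lost without M0 replicate 1 (adjusted p = 0.114) or 2 (0.108) and without M1-like replicate 2 (0.0805) or 3 (0.221). Ccl4 (0.70 ± 0.33, adjusted p = 0.0715) passed only without M1-like replicate 2 (0.84, adjusted p = 0.0499), among the libraries left out in turn. Ccl22 lay at 0.132–1.07 CPM in every untransfected library of the 3 states, with no difference called.

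In late M2-like macrophages 3 of the 10 genes were higher than in M0 and none lower in edgeR (19.9% of all genes passed, 10.7% higher). DESeq2 also called Ccl5 lower (−2.09, adjusted p = 0.0255), which edgeR did not, and M0 replicate 1 was high for Ccl5 at 6.59 CPM. Ccl9 was at 313, 399 and 330 CPM (1.42 ± 0.20, adjusted p = 2.59e-06), Ccl6 at 925, 1092 and 846 CPM against 398, 430 and 347 CPM in M0 (1.29 ± 0.23, adjusted p = 0.000122), and Ccl3 at 63.5, 50.7 and 53.2 CPM (0.50 ± 0.12, adjusted p = 0.00384). For these 3 genes every M2-like library lay above every M0 library, as for 17.8% of all genes. Set directly against each other, untransfected M1-like and M2-like macrophages differed in 8 of 10 genes (61.5% of all genes passed). Ccl5 (9.19 ± 0.71), Ccl8 (5.34 ± 0.69), Ccl2 (3.35 ± 0.30), Ccl7 (2.33 ± 0.39) and Ccl12 (ratio of counts 15.1, interval 4.88 to 76.0) were higher in M1-like macrophages, and Ccl8 stood at 6.61 without M2-like replicate 1. Ccl9 (−5.98 ± 0.26), Ccl6 (−3.42 ± 0.25) and Ccl3 (−0.79 ± 0.12, adjusted p = 1.98e-06) were lower. Relative to M2-like macrophages, Ccl3 in the M1-like state was thus higher at 24 h and lower later, each time without overlap of the groups. Of all genes, 35.3% were higher in this way at 24 h and 29.1% lower later. A difference between the experiments was not tested.

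**Figure D3:**
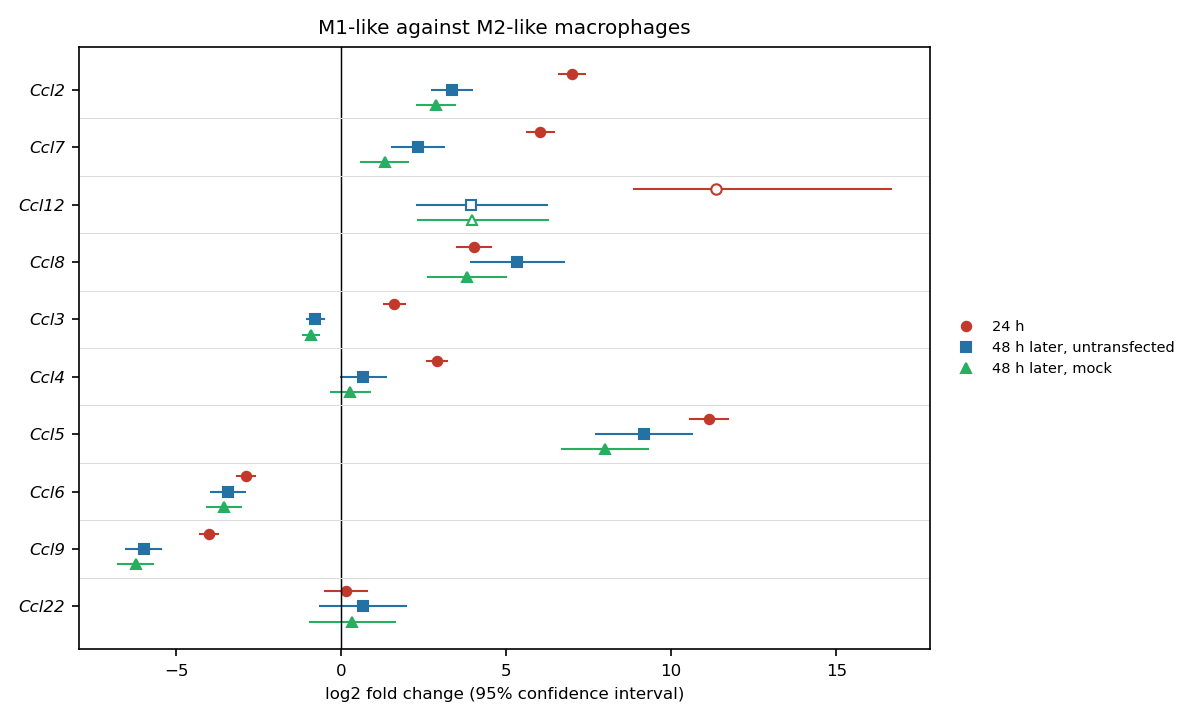
Log2 fold changes between M1-like and M2-like macrophages for the 10 genes at 24 h, later without transfection and later after mock transfection, with 95% intervals, n = 3 per group. Open symbols mark ratios of Ccl12 counts with their counting intervals. Ccl9 lies at −4.01 at 24 h and at −5.98 and −6.22 later, and Ccl3 changes sides.

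The mock libraries show what the transfection procedure without siRNA went along with. In M0 macrophages 6 of 10 genes were higher after mock transfection and none lower, when 11.7% of all genes were called higher and 20.4% were called in either direction. Ccl3 went from 40.8, 41.1 and 36.6 CPM to 82.8, 62.8 and 100 CPM (1.05 ± 0.12, adjusted p = 8.13e-08), Ccl4 from 5.86, 5.58 and 4.64 CPM to 12.8, 11.9 and 36.9 CPM (1.93 ± 0.31, adjusted p = 1.93e-05), and Ccl2 from 6.37, 4.78 and 6.34 CPM to 10.1, 13.4 and 24.2 CPM (1.45 ± 0.32, adjusted p = 0.00126). Ccl7 (1.99 ± 0.48, adjusted p = 0.00294) and Ccl6 (1.11 ± 0.23, adjusted p = 0.000579) were higher without overlap as well. For these 5 genes every mock library lay above every untransfected one, as for 18.3% of all genes. Replicate 3 was the highest mock library for each of the 5, and their calls held without it. Then the log2 fold changes were 0.88 for Ccl3, 1.2 for Ccl4, 1.03 for Ccl2, 1.47 for Ccl7 and 0.50 for Ccl6 (adjusted p = 0.0393 for Ccl6). Ccl12, at 0.140, 0.0537 and 1.31 CPM after mock transfection and 0, 0.0620 and 0 CPM without, overlapped and lost its call without mock replicate 3 (adjusted p = 0.541) and without any of the untransfected replicates 1, 2 or 3 (adjusted p = 0.0972, 0.0562 and 0.109). Ccl5 (adjusted p = 0.179), whose untransfected replicate 1 was high at 6.59 CPM beside 1.49 and 0.955 CPM, passed without that library (2.61, adjusted p = 0.0482), and Ccl9 (0.38, adjusted p = 0.177) passed without mock replicate 1 (0.57, adjusted p = 0.0468).

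In M1-like macrophages none of the 10 genes passed after mock transfection, and edgeR's quasi-likelihood test and DESeq2 each called 0 genes of all tested (0%), with 0 of the 10 at an unadjusted p under 0.05. The intervals still leave room for change: that of Ccl5 was −0.70 to 0.92 and that of Ccl2 −0.57 to 0.42 on the log2 scale. In M2-like macrophages 0 of the 10 passed in edgeR or DESeq2, with 1 at an unadjusted p under 0.05 and 1.77% of all genes called by edgeR. Ccl4, at 10.1, 11.2 and 8.16 CPM after mock transfection and 5.94, 5.67 and 4.83 CPM without, was higher in every library, as were 6.45% of all genes, but missed the threshold (0.84 ± 0.33, interval 0.17 to 1.51, adjusted p = 0.332). In comparisons added after the data had been seen, the mock effect itself differed between M0 and M1-like macrophages for 5 genes, Ccl2, Ccl7, Ccl6, Ccl3 and Ccl4 (9.07% of all genes passed), and between M0 and M2-like macrophages for Ccl6 and Ccl3 (5.66% of all genes passed), larger in M0 each time. Without M0 mock replicate 3 only Ccl3 passed in either comparison. The M1-like against M2-like difference after mock transfection (8 of 10 genes called, 60.7% of all genes) passed no test of its difference from that without transfection in the 10 genes, in edgeR or DESeq2 (1.13% of all genes passed in edgeR).

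Mock transfected M1-like macrophages differed from mock transfected M0 in 8 of the 10 genes as well, 4 higher and 4 lower (60.4% of all genes passed). Ccl5 (5.87), Ccl8 (4.55), Ccl2 (2.09) and Ccl7 (1.02) were higher and Ccl9 (−5.20), Ccl6 (−3.45), Ccl3 (−1.23) and Ccl4 (−0.78, adjusted p = 0.0149) lower on the log2 scale. Without M0 mock replicate 3, in which Ccl5 stood at 19.1 CPM beside 1.75 and 2.20 CPM, the values were 7.78 for Ccl5, 6.56 for Ccl8, 2.52 for Ccl2, 1.54 for Ccl7, −4.82 for Ccl9, −2.84 for Ccl6 and −1.06 for Ccl3, and Ccl8 was at 3.88 without M0 mock replicate 2. The call of Ccl4 was lost without M0 mock replicate 3 (−0.05, adjusted p = 0.854) or M1-like mock replicate 2 (adjusted p = 0.09), that of Ccl7 without M0 mock replicate 2 (0.74, adjusted p = 0.0888), and Ccl12 passed without M0 mock replicate 3 (3.44, adjusted p = 0.00126). Between M2-like mock and M0 mock, Ccl9 was higher (1.02, adjusted p = 0.00137) and Ccl4 lower (−1.06, adjusted p = 0.0295), with 3.83% of all genes called. With only these 2 groups in the model neither passed (adjusted p = 0.0866 for Ccl9 and 0.295 for Ccl4). Ccl4 lost that call without M0 mock replicate 3 (adjusted p = 0.485) and without M2-like mock replicate 1, 2 or 3 (adjusted p = 0.0919, 0.0678 and 0.0908). Without M0 mock replicate 3 Ccl6 was called higher (0.72, adjusted p = 0.0181), and without M0 mock replicate 2 Ccl3 was called lower (−0.47, adjusted p = 0.0159). DESeq2 also called Ccl5 lower in M2-like mock than in M0 mock (−2.15, adjusted p = 0.0378), which edgeR did not. In edgeR without M0 mock replicate 3 the value of Ccl5 was −0.22 (adjusted p = 0.931).

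**Figure D4:**
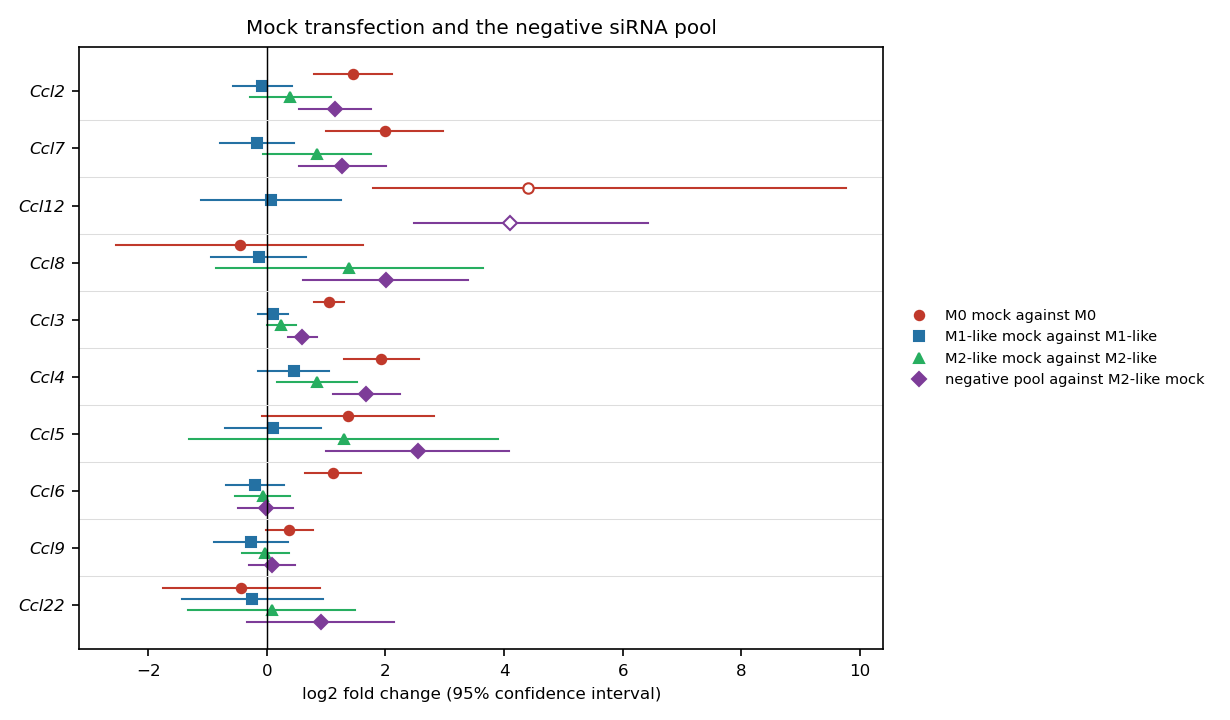
Log2 fold changes of the 10 genes after mock transfection in M0, M1-like and M2-like macrophages, with 95% intervals, n = 3 per group, and the ratio of counts for Ccl12. Ccl2, Ccl3, Ccl4, Ccl6 and Ccl7 lie above 0 in M0 macrophages, and none of the 10 passed in M1-like or M2-like macrophages.

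Transfection with the negative siRNA pool, whose siRNA sequences are not given in the sources used here, was itself followed by higher chemokine levels. Against M2-like mock macrophages 6 of 10 genes were higher and none lower (6.67% of all genes were called higher, 11.7% in either direction), and the median log2 fold change was 1.22 over the 10 and 0.01 over all genes. Ccl4 was at 10.1, 11.2 and 8.16 CPM in mock and 33.2, 31.9 and 29.5 CPM with the negative pool (1.68 ± 0.28, adjusted p = 7.41e-05). Ccl3 went from 70.3, 65.1 and 62.4 CPM to 111, 92.2 and 96.9 CPM (0.60 ± 0.12, adjusted p = 0.000585). Both were higher in every library, as were 16.1% of all genes and also Ccl12, with 57 counts against 3 (ratio 17.1, interval 5.57 to 85.5), which held in every fit without a library. The other 3 calls were lost without single libraries. Ccl5 was at 9.75, 10.9 and 9.55 CPM against 1.66, 1.75 and 1.74 CPM (2.54 ± 0.75, adjusted p = 0.0236) and missed the threshold without mock replicate 1, 2 or 3 (adjusted p = 0.0756, 0.0596 and 0.0785) or negative pool replicate 2 (0.0566). Ccl2 (1.15 ± 0.30, adjusted p = 0.00825) missed it without mock replicate 1 (0.0619) or negative pool replicate 2 (0.0512), and Ccl7 (1.28 ± 0.36, adjusted p = 0.0162) without mock replicate 1 (0.1) or 3 (0.0997) or negative pool replicate 2 (0.0817). With negative pool replicate 2 left out, 3 of the 10 genes were called. Ccl8 (2.01 ± 0.68, adjusted p = 0.052) passed in DESeq2 (adjusted p = 0.0188) and without mock replicate 1 (0.0445). Ccl6 (−0.02, interval −0.48 to 0.44) and Ccl9 (0.08, interval −0.31 to 0.47) differed by less than the spread between libraries. All 10 genes of an interferon-stimulated list rose in the same comparison, from a summed level of 463–962 CPM in mock to 2998–3365 CPM, and their part in the chemokine result was not tested.

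Each knockdown was therefore set against the negative pool, a control that the 5 comparisons share. With the combined pool (iM1 macrophages) 5 of 10 genes were higher and none lower, when 12.5% of all genes were called higher and 26.5% in either direction. The median log2 fold change was 0.64 over the 10 and 0.01 over all genes. Ccl2 was at 16.4, 24.8 and 20.6 CPM with the negative pool and 43.6, 51.8 and 70.6 CPM with the combined pool (1.43 ± 0.26, adjusted p = 9.8e-05), and Ccl7 at 5.72, 8.07 and 5.95 CPM and 11.7, 17.6 and 19.3 CPM (1.31 ± 0.30, adjusted p = 0.00119). Ccl5 was at 9.75, 10.9 and 9.55 CPM and 21.9, 32.3 and 60.1 CPM (1.92 ± 0.49, adjusted p = 0.00392), and Ccl3 at 111, 92.2 and 96.9 CPM and 153, 141 and 149 CPM (0.56 ± 0.12, adjusted p = 0.000427). For these 4 genes every library of the combined pool lay above every library of the negative pool, as for 22.1% of all genes, and replicate 3 was the highest for Ccl2, Ccl7 and Ccl5. Ccl12, at 1.26, 1 and 1.2 CPM and 1.72, 2.88 and 4.74 CPM, passed narrowly (1.42 ± 0.51, adjusted p = 0.0379). It did not pass in DESeq2 (adjusted p = 0.061), without negative pool replicate 1, 2 or 3 (0.0784, 0.107 and 0.0908) or without combined pool replicate 2 or 3 (0.0625 and 0.224). Ccl4 was higher in every library (35.0, 35.6 and 49.4 CPM against 33.2, 31.9 and 29.5 CPM) without passing (0.34 ± 0.25, adjusted p = 0.328).

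The pool against Myc gave 4 higher genes and none lower (13.9% of all genes called higher, 29.6% in either direction). Ccl2 was at 49.2, 51.3 and 66.4 CPM (1.43 ± 0.26, adjusted p = 8.26e-05), Ccl7 at 14.0, 20 and 20.5 CPM (1.47 ± 0.29, adjusted p = 0.000274), Ccl5 at 24.5, 24.8 and 46.0 CPM (1.65 ± 0.50, adjusted p = 0.0116) and Ccl3 at 162, 125 and 142 CPM (0.51 ± 0.12, adjusted p = 0.000942), each above every library of the negative pool, as were 23.4% of all genes. Ccl5 lost its call without Myc replicate 3 (1.29, adjusted p = 0.0802). Ccl12, at 1.92, 1.98 and 3.72 CPM, was also higher in every library but did not pass (1.11 ± 0.52, adjusted p = 0.104). Ccl22, the ligand of Ccr4, lay between 0.0642 and 1.37 CPM with any siRNA pool.

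With the pools against Pparg, E2f1 and Stat6, 0 of the 10 genes passed in edgeR's quasi-likelihood test or in DESeq2, and 2, 2 and 0 had an unadjusted p under 0.05. Of all genes, 5.74%, 0.91% and 1.51% were called by edgeR. With the Pparg pool Ccl2 was at 28.9, 41.5 and 39.0 CPM (0.83 ± 0.26, adjusted p = 0.0571) and Ccl7 at 9.20, 15.1 and 11.3 CPM (0.87 ± 0.30, adjusted p = 0.0856), above every library of the negative pool as were 14.2% of all genes. Ccl2 passed without Pparg replicate 1 (adjusted p = 0.0415). With the replicate number as a block in the edgeR model, Ccl2 and Ccl7 passed (adjusted p = 0.00156 and 0.0164). With only the Pparg and negative pools in the model, Ccl2, Ccl5 and Ccl7 did (0.00436, 0.00829 and 0.0138). With the Stat6 pool Ccl2 was at 20.6, 31.5 and 33.8 CPM (0.48, interval −0.07 to 1.02). With the E2f1 pool Ccl2 was at 14.5, 25.3 and 20.8 CPM (−0.02, interval −0.58 to 0.53) and Ccl4 at 18.0, 23.1 and 20.4 CPM, under every library of the negative pool, as were 11.3% of all genes (−0.62 ± 0.26, adjusted p = 0.337). With only the E2f1 and negative pools in the edgeR model, Ccl4 passed (−0.61, adjusted p = 0.00528).

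**Figure D5:**
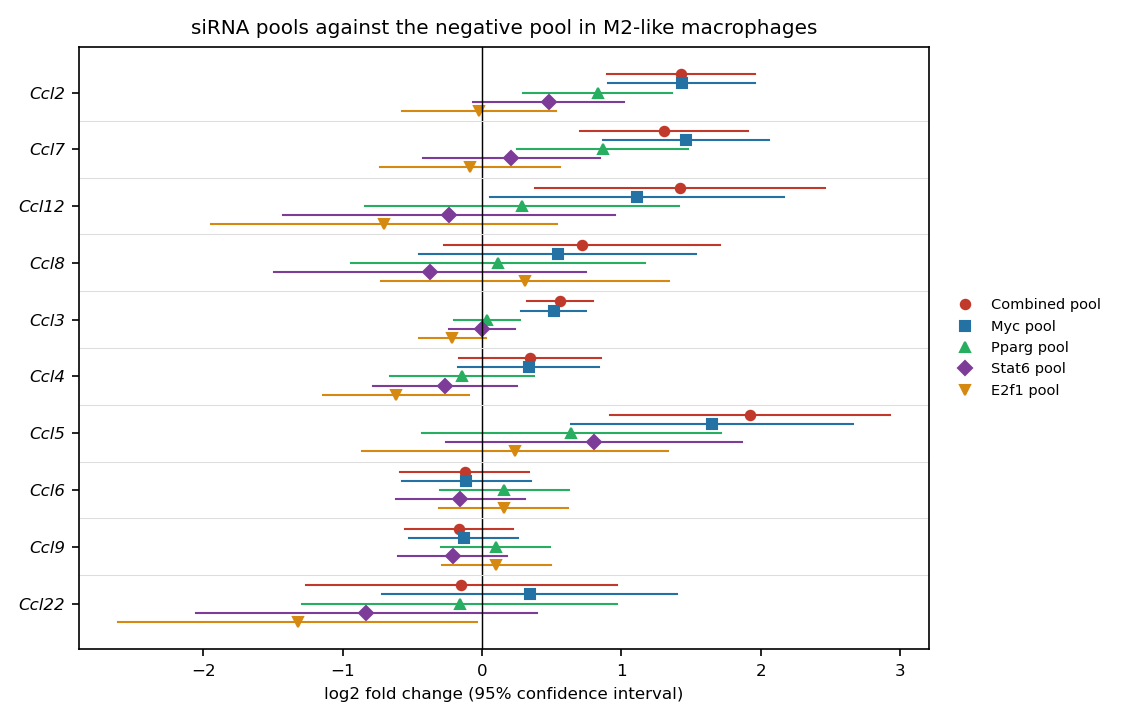
Log2 fold changes of the 10 genes in M2-like macrophages transfected with each siRNA pool against the negative pool, with 95% intervals, n = 3 per group. In the fit shown, which has no replicate block, Ccl2, Ccl7, Ccl5 and Ccl3 passed with the Myc and combined pools. None of the 10 passed there with the Pparg, E2f1 or Stat6 pool. With a replicate block Ccl2 and Ccl7 also passed with the Pparg pool.

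Whether the pools differed from each other was tested directly in comparisons added after the data had been seen. Between the combined pool and the Myc pool 0 of the 10 genes passed in edgeR or DESeq2, with 0 of the 10 at an unadjusted p under 0.05 and 0.0494% of all genes called. The difference was −0.00 for Ccl2 (interval −0.50 to 0.49), 0.05 for Ccl3 (−0.19 to 0.28) and 0.27 for Ccl5 (−0.62 to 1.17) on the log2 scale. The combined pool was not called different from the sum of the 4 single pools in any of the 10 genes either (edgeR 0, DESeq2 0, 0 at an unadjusted p under 0.05, 1.69% of all genes called). Between the Myc and Pparg pools Ccl3 differed (0.48 ± 0.12, adjusted p = 0.00284, 21.8% of all genes called). With the replicate number as a block in the edgeR model, Ccl2 and Ccl7 passed as well (adjusted p = 0.00419 and 0.0278). Between the Myc and Stat6 pools, Ccl2 (0.95, adjusted p = 0.00551), Ccl7 (1.26, adjusted p = 0.00166) and Ccl3 (0.51, adjusted p = 0.00126) were higher with the Myc pool (25.2% of all genes called). Without Stat6 replicate 2 Ccl8 (adjusted p = 0.0392) and Ccl22 (0.0361) passed as well, and without Myc replicate 2 Ccl4 did (0.0342). With the replicate block Ccl12 (adjusted p = 0.021) and Ccl4 (0.0491) passed between the Myc and Stat6 pools. Between the Myc and E2f1 pools 7 of 10 genes were higher with the Myc pool (26% of all genes called), led by Ccl2 (1.45, adjusted p = 8.2e-05), Ccl7 (1.55, adjusted p = 0.000176) and Ccl3 (0.73, adjusted p = 1.8e-05), with Ccl4 (0.95, adjusted p = 0.00555), Ccl12 (1.81, adjusted p = 0.015), Ccl5 (1.41, adjusted p = 0.0305) and Ccl22 (1.67, adjusted p = 0.0401). Of these, Ccl12 missed the threshold without E2f1 replicate 1 (0.0943) or Myc replicate 3 (0.0976), and Ccl5 did in DESeq2 (0.104), without E2f1 replicate 1 (0.142) or 3 (0.0784) and without Myc replicate 3 (0.171). Ccl22 held only without E2f1 replicate 2, among the libraries left out in turn (2.48 without it, adjusted p = 0.0522 to 0.193 without the others).

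Set against M2-like mock, the siRNA groups carried the rise with the negative pool as well, and these comparisons share the mock libraries. With the combined pool 7 of 10 genes were higher and none lower (37.1% of all genes passed): Ccl5 by 4.46 ± 0.66, Ccl8 by 2.73 ± 0.64, Ccl2 by 2.58 ± 0.29, Ccl7 by 2.58 ± 0.34, Ccl4 by 2.02 ± 0.28 and Ccl3 by 1.16 ± 0.12 on the log2 scale, and Ccl12 with a ratio of counts of 46.1 (interval 15.5 to 226). Without any 1 library these 7 calls held, and Ccl8 stood at 3.52 without mock replicate 1. Without that library Ccl8 stood at 3.34 with the Myc pool, 2.91 with the Pparg pool and 3.11 with the E2f1 pool, in place of 2.55, 2.12 and 2.31. The Myc, Pparg and E2f1 pools also gave 7 higher genes each and the Stat6 pool 6 (38.7%, 17.2%, 11.6% and 11.5% of all genes passed). With the E2f1 pool 0 genes were called without E2f1 replicate 2, 1 without mock replicate 3 and 4 without mock replicate 1 or 2. With the Pparg pool Ccl8 fell away without Pparg replicate 2 (adjusted p = 0.104) or mock replicate 2 (0.119) or 3 (0.0775), and with the Stat6 pool Ccl12 without mock replicate 1 (0.0679).

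The combined pool and M1-like mock macrophages, the state that reprogramming aimed for, differed in 8 of 10 genes, 6 higher and 2 lower in iM1 macrophages (52.9% of all genes passed). Ccl2 reached 81.4% of the mean M1-like mock level (−0.30 ± 0.24, interval −0.79 to 0.20, adjusted p = 0.316), with overlapping libraries. Ccl5, at 21.9, 32.3 and 60.1 CPM, stood at 8.63% of the 467, 353 and 505 CPM of M1-like mock macrophages (−3.53 ± 0.45, adjusted p = 7.35e-08), and Ccl8 at 46.4% (−1.09 ± 0.42, adjusted p = 0.0297). Ccl8 did not pass in DESeq2 (adjusted p = 0.0504), without M1-like mock replicate 1 (0.0711) or 3 (0.0731) or without combined pool replicate 1 (0.137) or 3 (0.0586). Ccl7 (240% of the M1-like mock level, adjusted p = 0.000484) and Ccl12 (286%, adjusted p = 0.0119) were higher in iM1 macrophages, Ccl12 with overlapping libraries and not without M1-like mock replicate 2 (0.0826) or combined pool replicate 3 (0.108). Ccl3 (424%) and Ccl4 (335%) were higher without overlap, as were 29.6% of all genes. With the negative pool alone Ccl3 stood at 288%, Ccl4 at 264%, Ccl12 at 106%, Ccl7 at 97.5%, Ccl2 at 30.3%, Ccl8 at 28.3% and Ccl5 at 2.28% of the M1-like mock level. Ccl6 and Ccl9 showed the largest of these increases. Ccl6 was at 746, 938 and 793 CPM with the combined pool beside 95.2, 51.7 and 86.1 CPM in M1-like mock macrophages (3.41 ± 0.25), and Ccl9 at 251, 327 and 391 CPM beside 4.40, 4.71 and 4.59 CPM (6.14 ± 0.26). Against the negative pool the combined pool moved them by −0.12 (interval −0.59 to 0.34) and −0.17 (−0.56 to 0.23). Per length, Ccl6 led the 10 genes in iM1 macrophages at 460 RPKM, before Ccl3 (193 RPKM) and Ccl9 (106 RPKM), whereas Ccl5 led in M1-like mock macrophages at 460 RPKM.

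Among the receptors of these ligands, 4 of 14 listed CC receptor genes reached a mean of 1 CPM in any condition: Ccr1, Ccr2, Ccr7 and Ccrl2. At 24 h, 8 of the list were tested, of which 3 rose and 2 fell from M0 to M1-like macrophages, when 35.4% of all genes rose and 37.5% fell. Ccr2, the receptor of the monocyte chemoattractant proteins, was at 6.80, 6.36 and 5.11 CPM in M0 and 1.73, 1.89 and 2.18 CPM in M1-like macrophages (−1.65 ± 0.21, adjusted p = 1.66e-05), so that it was low where Ccl2, Ccl7 and Ccl12 were high. Ccr7, which guides cells to lymph nodes, went from 4.12, 1.45 and 1.53 CPM to 36.6, 32.5 and 26.4 CPM (3.76 ± 0.50, adjusted p = 2.47e-05). Ccrl2, an atypical receptor, went from 72.0, 69.1 and 65.8 CPM to 647, 584 and 556 CPM (3.11 ± 0.08, adjusted p = 6.45e-12).

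In the reprogramming experiment 5 receptors of the list were tested. In untransfected M1-like macrophages Ccr2 was at 0.305, 0.134 and 0.189 CPM against 10.3, 13.4 and 9.28 CPM in M0 (−5.65 ± 0.46, adjusted p = 2.4e-12), and Ccr1, the receptor of Ccl6 and Ccl9, at 279, 308 and 268 CPM against 47.1, 58.9 and 49.8 CPM (2.45 ± 0.16, adjusted p = 1.55e-14). Against the negative pool 3 receptors were higher and 1 lower with the combined pool (12.5% of all genes higher, 13.9% lower) and with the Myc pool (13.9% higher, 15.6% lower), and 0 with the Pparg, E2f1 or Stat6 pool. Ccr2 was at 6.14, 5.74 and 5.32 CPM with the negative pool, 0.763, 2.61 and 1.82 CPM with the combined pool (−1.70 ± 0.33, adjusted p = 0.000214) and 1.13, 0.915 and 1.06 CPM with the Myc pool (−2.46 ± 0.35, adjusted p = 2.85e-06). Ccr1 was at 96.8, 97.1 and 88.6 CPM, 147, 156 and 172 CPM (0.75 ± 0.15, adjusted p = 0.000401) and 167, 144 and 158 CPM in the same order. The libraries of the knockdowns overlapped with the negative pool for neither gene. Of all genes, 22.1% were higher and 22.1% lower without overlap with the combined pool, and 23.4% and 24.4% with the Myc pool.

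Of 13 other CC ligands, Ccl24, Ccl25 and Ccl27a reached a mean of 1 CPM in some condition, and all 13 together summed to 2.04–6.55 CPM at 24 h. Ccl24, a ligand of Ccr3, rose in M2-like macrophages at 24 h, to 3.20, 1.87 and 1.78 CPM from 0.300, 0.168 and 0.257 CPM in M0 (3.22 ± 0.31, adjusted p = 2.11e-05). The 10 genes of a list of NF-kB targets summed to 4049–4475 CPM in M1-like samples at 24 h and 332–408 CPM in the others. They summed to 429–441 CPM with the negative pool, 695–933 CPM with the Myc pool, 725–945 CPM with the combined pool and 412–542 CPM with the other 3 pools, and all 10 were higher with the Myc and with the combined pool than with the negative pool. Of 10 interferon-stimulated genes, 5 were higher with the combined pool and 2 with the Myc pool, when 12.5% and 13.9% of all genes were. The part of these genes' regulators in the chemokine levels was not tested.

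Over the means of the 12 conditions of the reprogramming experiment, the genes most like each member in log2 CPM were found by Pearson's r, as a description over 12 points that share libraries. Ccl6 and Ccl9 were among each other's nearest 3 genes (r = 0.991), and Mrc1, the mannose receptor, was nearest to Ccl9 (r = 0.994) and Igsf6 to Ccl6 (r = 0.992). H2-M3 was nearest to Ccl5 (r = 0.992), followed by Iigp1 and Tapbpl. Ccl7 was nearest to Ccl12 (r = 0.973), whereas Psmb10 was nearest to Ccl7 (r = 0.984). For Ccl2 the nearest was Mrgbp (r = 0.986), for Ccl3 Optn and for Ccl4 Ptpn6 (r = 0.979 each), and for Ccl8 Nupr1 (r = 0.978). Ccl22, the lowest per length of the 10 in most conditions of this experiment, had no gene above r = 0.851.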

How the data were processed

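Reads had been trimmed (Trimmomatic), aligned to mm10 (TopHat2) and assigned to genes (featureCounts) by the authors. The deposited values are raw counts per gene for 54 libraries, and tool versions and the strand setting are not given in the sources used here. Symbols and gene lengths were taken from GENCODE M21.

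Conditions were taken from the sample labels, and the 2 technical runs of each mouse and condition were summed. Each experiment was fitted in 1 model with edgeR 4.0.16 (R 4.3.3): filterByExpr (minimum count 10, minimum total count 15), TMM normalization, 1 coefficient per condition, two-sided quasi-likelihood test and Benjamini-Hochberg adjustment over all genes tested, with a threshold of 0.05. CPM and RPKM use TMM-normalized library sizes. The SE is the log2 fold change divided by the square root of F. DESeq2 1.42.0 was an alternative. On simulated counts edgeR recovered 81% of 2-fold and 91% of 4-fold changes between the combined and negative pools (13869 genes). Intervals of count ratios, and the floor of 3 counts, cover counting error only.

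The members and gene lists were chosen with earlier results of these data known, and all 10 members are named in every condition. Numbers in the polarization experiment mark the same mouse (median correlation of deviations 0.25 over 9 same-mouse pairs and −0.135 over the others). Python 3.11.15 was used for plots and promoter windows. Some results are not reported here.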

Additional observations from a re-analysis of the deposited data

Results flagged for a closer look

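The effect of mock transfection differed between the macrophage states for 5 of the 10 genes when the difference itself was tested with edgeR's quasi-likelihood test, in comparisons added after the data had been seen, in which 9.07% of all genes passed for M0 against M1-like and 5.66% for M0 against M2-like macrophages. The effect in M0 macrophages minus that in M1-like macrophages was 2.15 ± 0.58 for Ccl7 (adjusted p = 0.0147), 1.53 ± 0.40 for Ccl2 (adjusted p = 0.0135), 1.48 ± 0.43 for Ccl4 (adjusted p = 0.0251), 1.31 ± 0.33 for Ccl6 (adjusted p = 0.00883) and 0.94 ± 0.17 for Ccl3 (adjusted p = 0.000365) on the log2 scale. All 5 rested on the same M0 libraries, and replicate 3 of the M0 mock macrophages was the highest of its group for each. Without it Ccl3 passed (0.77, adjusted p = 0.00186), and Ccl7 (1.63, adjusted p = 0.0822), Ccl2 (1.10, adjusted p = 0.0791), Ccl4 (0.75, adjusted p = 0.149) and Ccl6 (0.70, adjusted p = 0.0598) did not. Ccl4 also missed the threshold without M0 replicate 3 (adjusted p = 0.0704), M1-like replicate 1 (0.0586) or 3 (0.0633) or M1-like mock replicate 2 (0.0709), and Ccl12 passed without M0 mock replicate 2 (adjusted p = 0.0443).

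The effect in M0 macrophages minus that in M2-like macrophages was 1.18 ± 0.32 for Ccl6 (adjusted p = 0.0236) and 0.81 ± 0.17 for Ccl3 (adjusted p = 0.00332). Ccl6 missed the threshold without M0 mock replicate 3 (0.57, adjusted p = 0.152), M0 replicate 3 (adjusted p = 0.0709), M2-like replicate 2 (0.067) or M2-like mock replicate 3 (0.0669), and Ccl3 passed without M0 mock replicate 3 (0.64, adjusted p = 0.0125). The 10 interferon-stimulated genes summed to 75.8–162 CPM in M0 and 650–1890 CPM in M0 mock macrophages, and their part in these differences was not tested.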

How the results depend on the processing

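No called value changed direction under any alternative. The replicate block called 2 of the 10 genes between the Pparg and negative pools, 3 between the Myc and Pparg pools and 5 between the Myc and Stat6 pools, in place of 0, 1 and 3. Those added were Ccl2 and Ccl7 (adjusted p = 0.00156 and 0.0164) for the first, Ccl2 and Ccl7 (0.00419 and 0.0278) for the second and Ccl12 and Ccl4 (0.021 and 0.0491) for the third. It moved no other count by more than 1.5 times and changed no call in the polarization experiment. Within that limit Ccl2 was added for M2-like mock against M0 mock (adjusted p = 0.021). Ccl2 was also added for the mock effect of M0 minus that of M2-like macrophages (0.0447), and Ccl8 for the negative pool against mock (0.0485). In the reprogramming experiment, where the samples share only a number, 34 of 36 samples correlated best with samples of their own number.

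Without a filter on low counts, the genes called were 6 for M2-like mock against M0 mock, 1 for M2-like mock against untransfected M2-like, 3, 1 and 2 for the Pparg, E2f1 and Stat6 pools against the negative pool, 1 for the combined pool minus the sum of the single pools, 5 and 6 for the Myc pool against the Pparg and Stat6 pools, and 8 and 4 for the mock effect of M0 minus that of M1-like and M2-like macrophages. With only the compared groups in the model they were 0, 1, 3 and 1 for the first 4 of these comparisons and 5 for the Myc pool against the Pparg and against the Stat6 pool. With at least 10 counts in every sample only 6 of the 10 genes were tested. Then 5 were called in the untransfected M1-like against M0 and against M2-like comparisons, in M1-like mock against M2-like mock and in the combined pool against M1-like mock, 4 with the combined, Myc, Pparg and E2f1 pools against mock and in the Myc against E2f1 pools, and 3 and 1 with the combined and Pparg pools against the negative pool. When a log2 fold change of 1 or more in size was required as well, the Myc pool differed from the Pparg pool in 0 and from the Stat6 pool in 1 gene, and the mock effect of M0 from that of M2-like macrophages in 1.

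Leaving out each library in turn, the number of genes called ranged from 1 to 3 for M2-like mock against M0 mock, 3 to 6 for the negative pool against mock, 0 to 1 for the Pparg pool against the negative pool, 0 to 6 for the E2f1 pool against mock, 4 to 7 for the Myc against the E2f1 pool, 3 to 5 for the Myc against the Stat6 pool, and 1 to 6 and 1 to 2 for the mock effect of M0 minus that of M1-like and M2-like macrophages. Depth limits Ccl12, Ccl8 and Ccl22 in the reprogramming experiment, where each had at most 92 counts in any library.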
